A study of Sus scrofa with 12 samples.

Results

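The genes of the myoglobin and creatine phosphate system were compared between Duroc and Luchuan pigs by the accessibility of their chromatin in longissimus dorsi muscle. The set holds 7 genes, MB, CKM, CKMT2, CKB, SLC6A8, GATM and AMPD1, and their regions were chosen by position alone, as peak intervals whose midpoint lay in the Sscrofa11.1 gene body or within 10 kb of it. This gave 96 of the 217213 deposited intervals, which merged into 55 of 140081 open regions at 5 of the 7 genes. The annotation used here has no row under the symbol MB, the gene of myoglobin, and it places CKB on a scaffold outside chromosomes 1 to 18, X and Y, to which the peak table is limited. MB and CKB were therefore not analysed here. ATAC-seq, in which a transposase cuts open DNA and the fragments are sequenced, was performed on 3 Duroc and 3 Luchuan boars, all 180 days old, fed alike and fasted overnight before sampling. The peak table gives 1 read count per breed and interval, so no spread between animals can be given and no test between breeds was possible. Expression data of the series were not used here.

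Myoglobin stores oxygen in the muscle fiber. Creatine is made from arginine and glycine, with GATM as the first enzyme, and is taken up from the blood by the transporter SLC6A8. In the fiber, the mitochondrial creatine kinase CKMT2 phosphorylates creatine, and the cytosolic creatine kinases CKM and CKB use phosphocreatine to restore ATP at the myofibrils, so that the pair works as a shuttle. When ATP falls in hard work, AMPD1, the AMP deaminase of skeletal muscle, removes AMP. CKM and AMPD1 are known to be abundant in fast fibers, and CKMT2 belongs to oxidative muscle.

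The merged regions held 20759894 Duroc and 13746020 Luchuan reads. Each log2 ratio given here is that of Luchuan to Duroc reads, with 1 added to both counts of a region, after the Luchuan reads were multiplied by 1.48, which sets the median of the regions called in both breeds to 0. Values below 0 are therefore higher in Duroc. Ranges in parentheses after a log2 ratio are 95% Clopper-Pearson intervals and cover counting error only. The labelled tissue was checked on 5 skeletal muscle genes (ACTA1, MYLPF, TNNT3, MYH1 and DES) and 4 liver genes (ALB, APOA1, TTR and FGB). The muscle genes had 2.18 to 6.10 regions per 10 kb of gene and flanks, and the liver genes 0.252 to 0.457. The median was 0.984 over the 16985 protein-coding genes with a region. The immune marker CD68, at 2.67, was above the muscle gene MYLPF, at 2.18. By Duroc reads per kb of region the lists overlapped, at 592 to 1235 for muscle and 66.7 to 596 for liver genes.

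CKM, AMPD1 and SLC6A8 had higher accessibility in Duroc at every region (SLC6A8 at 9 of 13 once the median of chromosome X was taken as the center), and CKMT2 was higher in Luchuan at 12 of 14 regions (at 6 of 14 with scaling by clean reads). Summed over the regions of a gene, the log2 ratio was -0.47 (-0.53 to -0.40) for CKM, -0.31 (-0.38 to -0.24) for AMPD1, -0.30 (-0.39 to -0.21) for SLC6A8, -0.08 (-0.24 to 0.09) for GATM and 0.15 (0.07 to 0.23) for CKMT2. The interval of GATM includes 0, so a difference was not detectable at this depth and scaling. Under this scaling, none of the 5 genes reached 0.5 on the log2 scale in either direction. Of all genes, 4.49% lay at -0.5 or less and 6.51% at 0.5 or more. Ranked among all genes, CKM stood at percentile 5.10, AMPD1 at 10.3, SLC6A8 at 10.8, GATM at 36.8 and CKMT2 at 75.1. With the reads scaled by the clean reads of the libraries, every value fell by 0.20. CKM was then at -0.66 and AMPD1 at -0.51, both below -0.5. The shift is the same for every gene and keeps the ranks, with AMPD1 at percentile 10.3 and SLC6A8, then at -0.497, at 10.8. Between 10.3% and 10.8% of all genes thus lay below -0.5 under that scaling. CKMT2 turned to -0.05 (-0.12 to 0.03) and GATM to -0.27 (-0.44 to -0.11). The interval of GATM then left out 0 and that of CKMT2 included it.

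**Figure D1:**
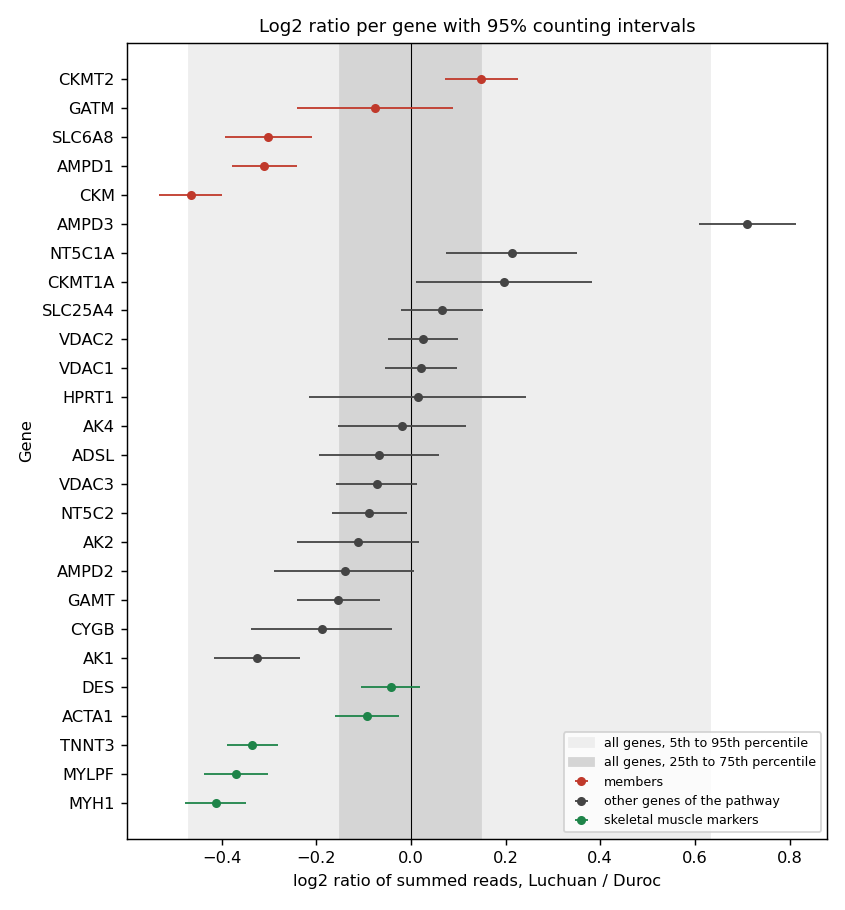
Log2 ratio of Luchuan to Duroc reads, summed over the regions of each gene, for the 5 members, 16 other genes of the pathway and 5 skeletal muscle markers. Bars are 95% counting intervals, and the shaded bands give the 5th to 95th and 25th to 75th percentiles of 16985 genes. CKM lies near the 5th percentile and AMPD3 above the 95th.

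Of the 55 regions, 43 had a log2 ratio below 0, which is 78.2%, against 50.8% of all regions. The median was -0.29, with an interquartile range of -0.51 to -0.10, and over all regions it was -0.009, with an interquartile range of -0.34 to 0.32. The counting interval lay below 0 for 20 of the 55 and above 0 for 1, while 15.7% of all regions lay below and 13.4% above. Counting intervals narrow with depth and the member regions were deeper, so these shares are not of like depth. The median of all regions also varied with depth, from 0.67 at 2 to 30 reads to -0.12 at 141 to 209 reads. A difference of 2-fold or more was found at 2 member regions, both of CKM and both higher in Duroc, which is 3.64%. This share was near the background, where 5.34% of all regions, and 5.25% of those with 40 or more reads, were 2-fold or more higher in Duroc. With scaling by clean reads 6 member regions (3 of CKM, 2 of AMPD1 and 1 of SLC6A8) were 2-fold or more higher in Duroc, or 10.9%, against 8.41% of all regions under the same scaling. At a limit of 1.5-fold under the first scaling, 12 member regions were higher in Duroc, or 21.8%, against 14.3% of all regions. No member region was 2-fold or more higher in Luchuan, against 7.41% of all regions. That share takes in weak regions, which reached higher values. At 2 to 30 reads the 75th percentile of all regions was 1.24, and at 210 to 351 reads the 95th was 0.60. The share among regions of 40 or more reads was not computed in this direction. The member regions were deep, with 40 to 3217 reads for both breeds together and a median of 257, against 99 over all regions. Regions of 1 gene lie side by side in the same libraries and are not replicates.

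**Figure D2:**
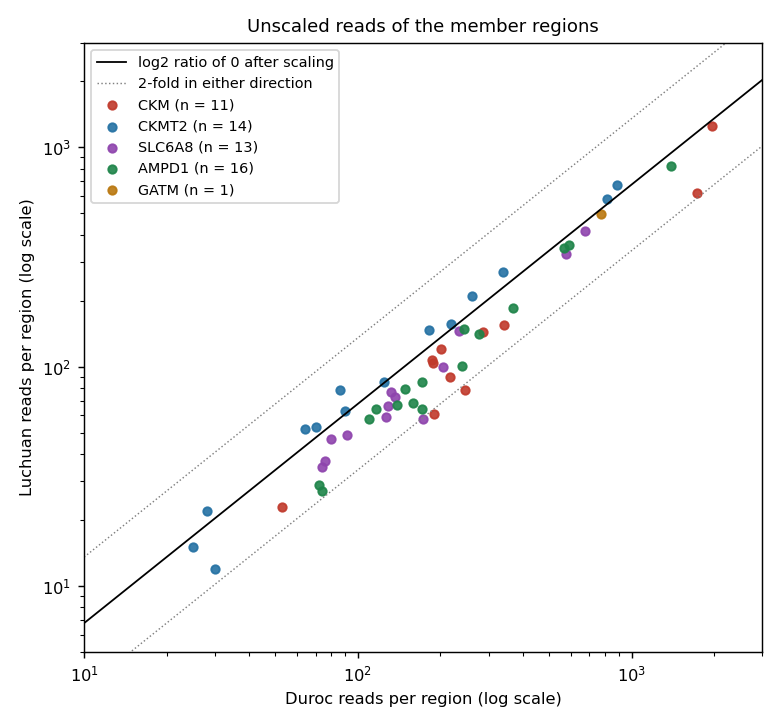
Unscaled Duroc reads (x axis) and Luchuan reads (y axis) of each of the 55 member regions, on log scales, colored by gene. The solid line marks a log2 ratio of 0 after scaling and the dotted lines a 2-fold difference. Under this scaling 12 of the 14 CKMT2 points lie above the solid line, the points of the other genes below it, and 2 CKM points lie past the lower dotted line.

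CKM encodes the muscle form of cytosolic creatine kinase, and lies on chromosome 6 from 51704021 to 51716935. Its 11 regions held 5606 Duroc and 2751 Luchuan reads, or 965 and 474 reads per kb of region, and 8 of them were called in both breeds and 3 in Duroc only. With 3.34 regions per 10 kb, the gene stood at percentile 98.1 of all genes. The log2 ratio was not even along the gene. On the side of the lower coordinate, a broad region from 51701751 to 51703366 showed 1731 reads in Duroc and 619 in Luchuan and a log2 ratio of -0.92 (-1.06 to -0.79). Beside it, 56 bases before the lower end of the gene, another from 51703708 to 51703965 showed 245 reads in Duroc and 78 in Luchuan and the lowest value of all members, -1.08 (-1.48 to -0.72). With a center that varies with the signal it was at -0.99, inside the 2-fold limit, while the broad region beside it was at -1.001 and past that limit. These 2 regions and another in MARK4, with 53 reads in Duroc and 23 in Luchuan, summed to -0.93.

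Within the gene body of CKM, the region from 51709193 to 51709433 was the other one past 2-fold, with 190 reads in Duroc and 61 in Luchuan and a log2 ratio of -1.06 (-1.52 to -0.65). It was past 2-fold under each scaling tried, but narrowly under some. It was at -1.002 with the center that varies with the signal and at -1.01 with the chromosome median. Both regions past 2-fold were called in Duroc only. The strongest region of the gene, from 51714210 to 51715971 and 1762 bases long, showed 1968 reads in Duroc and 1249 in Luchuan and a log2 ratio of -0.09 (-0.20 to 0.01), the highest of the 11. The region from 51716869 to 51717178, which holds the upper end of the gene, showed 287 reads in Duroc and 144 in Luchuan and a value of -0.43 (-0.73 to -0.14). The counting intervals of both regions beside the lower end lay wholly below that of the strongest region.

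The strongest and the next strongest region of CKM are the broad ones at its opposite ends, and their log2 ratios differed by 0.83 (0.66 to 0.998, exact conditional interval for counting error). This difference lies within the same libraries. Each scaling tried moved both regions by the same amount, so the value of 0.83 could not change with it. The strongest and next strongest region of AMPD1, SLC6A8 and CKMT2 differed by -0.04 (-0.27 to 0.20), 0.11 (-0.16 to 0.38) and 0.08 (-0.13 to 0.30), so intervals included 0 at all 3 genes. Over the 1845 genes whose corresponding regions held 1000 or more reads each, 2.82% differed by 0.5 or more in either direction. Among the 669 regions of 2000 or more reads, 2 were at or below the broad region of the lower side, that region included. The comparison within genes and both of these limits were chosen after values had been seen. The value of the gene depended on these regions, being -0.71 without the strongest region and -0.24 over the 6 regions of the gene body alone. The strand of the gene is not in the annotation used here, so the ends were not assigned to the transcription start site.

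**Figure D3:**
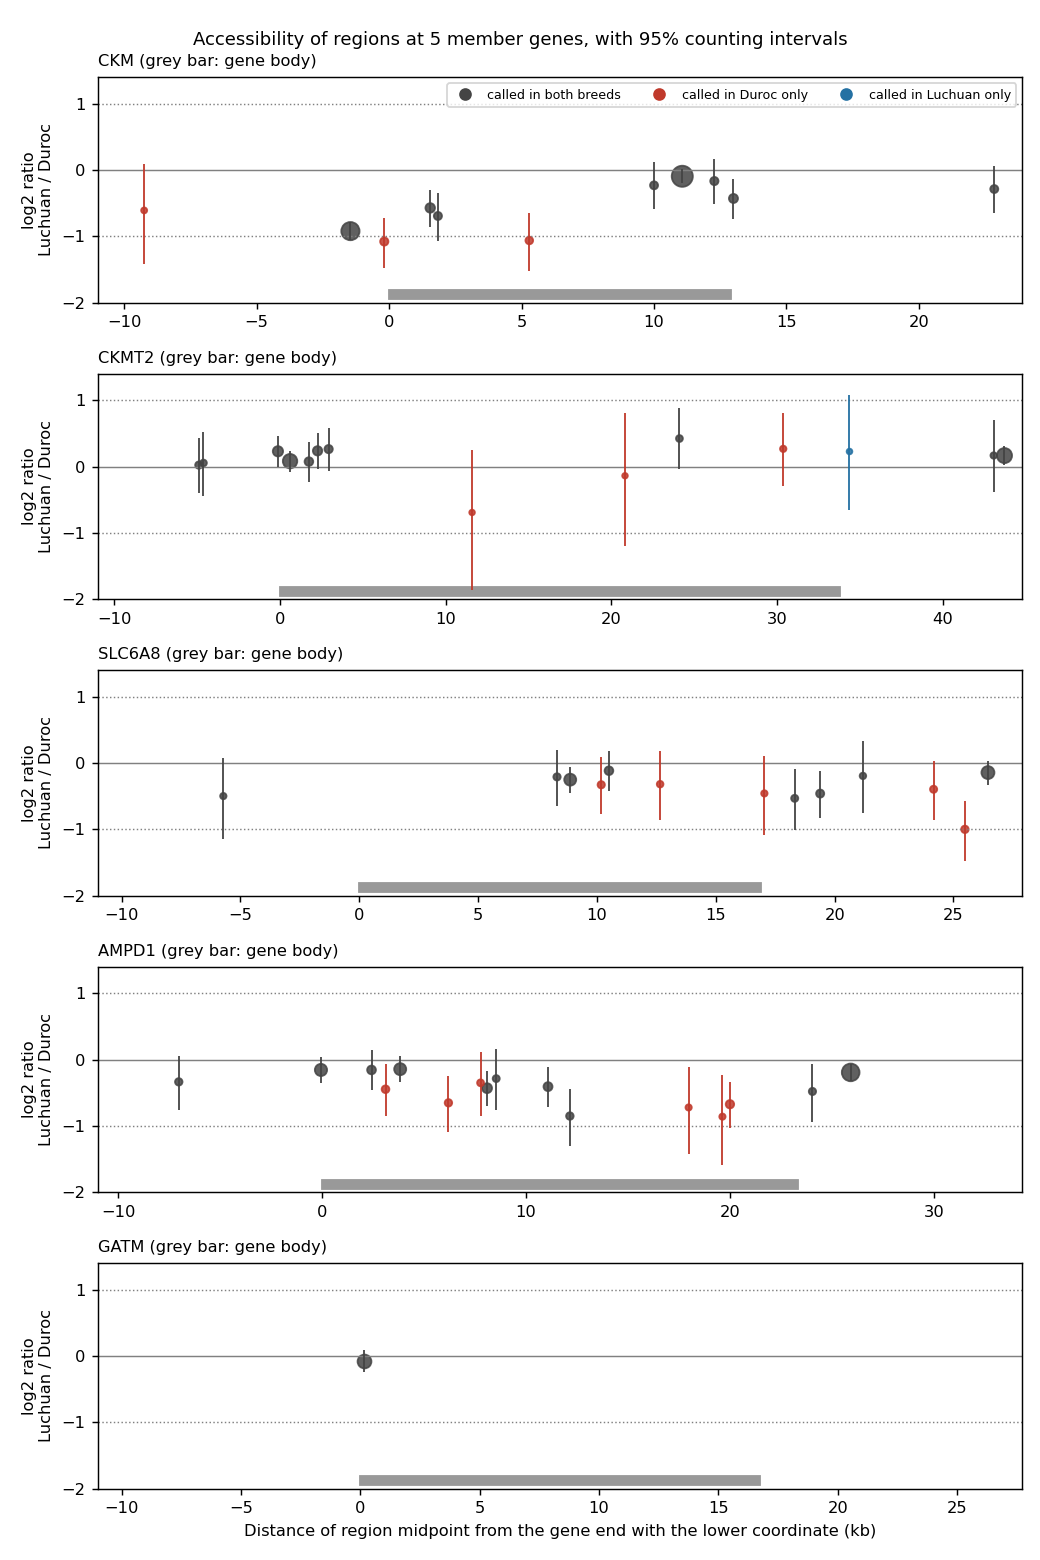
Log2 ratio of Luchuan to Duroc reads (y axis) of each region against the distance of its midpoint from the gene end with the lower coordinate in kb (x axis), for 5 genes. Bars are 95% counting intervals, point area grows with reads, colors give the breed in which the peak was called, dotted lines mark 2-fold and the grey bar is the gene body. At CKM the 2 points beside the left end of the gene lie near the lower dotted line and the largest point, inside the gene, near 0. At AMPD1 and SLC6A8 all points are below 0 under this scaling.

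CKMT2 encodes the creatine kinase of sarcomeric mitochondria, and lies on chromosome 2 from 89796470 to 89830293. Its 14 regions held 3216 Duroc and 2416 Luchuan reads, or 629 and 473 reads per kb of region, and 10 were called in both breeds, 3 in Duroc only and 1 in Luchuan only. All 10 regions called in both breeds were above 0, from 0.02 to 0.42. A cluster of 5 regions lay at the lower end of the gene. The one holding that end, from 89796143 to 89796543, showed 340 reads in Duroc and 270 in Luchuan and a log2 ratio of 0.23 (-0.01 to 0.46). Next to it, the strongest region of the gene body, from 89796659 to 89797489, showed 815 reads in Duroc and 584 in Luchuan and a log2 ratio of 0.08 (-0.08 to 0.24). The strongest of all, from 89839682 to 89840738, lies across an end of the neighbor ZCCHC9, with 882 reads in Duroc and 670 in Luchuan and a log2 ratio of 0.17 (0.02 to 0.31), and it was the sole region of CKMT2 whose interval left out 0. With scaling by clean reads this region turned to -0.030.

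The highest value of CKMT2, 0.42 (-0.04 to 0.88), belonged to the region from 89820365 to 89820803 inside the gene, with 86 reads in Duroc and 78 in Luchuan. The lowest, -0.69 (-1.86 to 0.25), belonged to the region from 89807984 to 89808145, with 30 reads in Duroc and 12 in Luchuan. This weak region is 1 of the 2 below 0, and both were called in Duroc only. Under the first scaling, the value above 0 at CKMT2 came from many regions, none of which reached 2-fold. Of the 14 intervals, 1 left out 0, that of the region across an end of ZCCHC9. With scaling by clean reads the gene was at -0.05 (-0.12 to 0.03), so a difference at CKMT2 depends on the scaling. With regions inside the neighbors RASGRF2 and ZCCHC9 included or left out, the gene stayed within its counting interval. The log2 ratio of CKM less that of CKMT2 was -0.61 (-0.72 to -0.51, exact conditional interval for counting error), a comparison of the summed reads that a single scaling factor between breeds leaves unchanged and that was chosen after values had been seen. It was -0.63 with a center that varies with the signal and -0.61 with the medians of the chromosomes.

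AMPD1 lies on chromosome 4 from 105868834 to 105892171 and had the most regions, 16, with 4833 reads in Duroc and 2642 in Luchuan, or 778 and 425 reads per kb of region. Its 3.69 regions per 10 kb put it at percentile 98.9 of all genes. Every region was below 0, from -0.86 to -0.14, and 10 of the 16 counting intervals lay below 0. Of the 3727 genes with 10 or more regions, 2.25% had every region below 0, and AMPD1, CKM and SLC6A8 are among them. The 3 strongest regions lay between -0.19 and -0.14. The one holding the lower end, from 105868445 to 105869104, showed 591 reads in Duroc and 359 in Luchuan and a log2 ratio of -0.16 (-0.35 to 0.03). The strongest region, from 105893986 to 105895512, lies outside the gene beyond its upper end, where no other annotated gene lies within 10 kb of AMPD1, and showed 1386 reads in Duroc and 821 in Luchuan and a log2 ratio of -0.19 (-0.32 to -0.07).

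Inside AMPD1, the region from 105872354 to 105872964 showed 565 reads in Duroc and 346 in Luchuan and the highest value, -0.14 (-0.34 to 0.05). Farther along, the region from 105888386 to 105888535 showed 74 reads in Duroc and 27 in Luchuan and the lowest, -0.86 (-1.59 to -0.24). The 12 regions of the gene body together were at -0.40, against -0.19 below the lower end and -0.22 above the upper end. The 6 regions called in Duroc only summed to -0.61 and the 10 called in both breeds to -0.26. Over all regions, the median was -0.36 for those called in Duroc only and 0.77 for those called in Luchuan only, so the breed of the call and the log2 ratio are not independent.

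SLC6A8 lies on chromosome X from 124435282 to 124452182, and its 13 regions held 2706 Duroc and 1488 Luchuan reads, or 641 and 352 reads per kb of region. All 13 were below 0, and 4 of their intervals left out 0. Of the 13 regions, 5 lay in the gene body and 4 inside the neighbors PNCK or BCAP31. Among those whose interval left out 0, the region from 124443750 to 124444562 lies in the gene body. The others lie beyond its upper end. The highest value, -0.12 (-0.43 to 0.19), was at the region from 124445589 to 124445982 inside the gene, with 234 reads in Duroc and 146 in Luchuan. The lowest, -0.999 (-1.47 to -0.58), was at the region from 124460641 to 124460884, with 173 reads in Duroc and 58 in Luchuan. It lies in the neighbor BCAP31 and is the member just outside the 2-fold limit, while the CKM region at -1.06 is the one just inside. The strongest region, from 124461368 to 124462094, also lies in BCAP31, with 677 reads in Duroc and 415 in Luchuan and a log2 ratio of -0.14 (-0.32 to 0.03). No region held either end of SLC6A8.

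The X chromosome as a whole was shifted toward Duroc, with a median of -0.23 over its regions, whereas chromosomes 1, 2, 4 and 6, which hold the other members, had medians from -0.05 to 0.03. Relative to the median over the regions of X, SLC6A8 was at -0.07 and 9 of its 13 regions were below 0. The median over the 559 genes of X with a region was nearer to 0, at -0.14. Among these genes SLC6A8, at -0.30, stood at percentile 25.9. The regions of CKM and AMPD1 stayed below 0 throughout with each chromosome's own median as the center.

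GATM, the enzyme of the first step of creatine synthesis, lies on chromosome 1 from 126361968 to 126378705 and had a single region. It runs from 126361361 to 126362898, holds the lower end of the gene, and showed 773 reads in Duroc and 497 in Luchuan, with a log2 ratio of -0.07 (-0.24 to 0.09). With 0.272 regions per 10 kb, GATM stood at percentile 8.26 of all genes, far from the 94.0 to 98.9 of CKMT2, CKM, SLC6A8 and AMPD1. At 503 Duroc reads per kb, this region was less dense than the summed regions of the other 4 members, which had 629 to 965. It was among the 4 member regions of 1500 bases or more, with 2 of CKM and 1 of AMPD1. Such broad regions made up 0.328% of all regions.

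**Figure D4:**
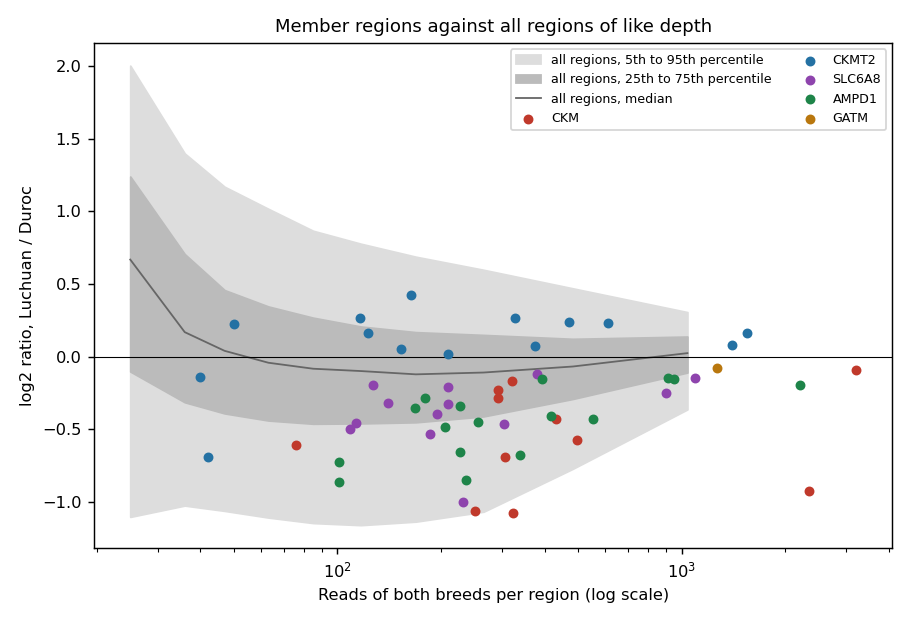
Log2 ratio (y axis) of the 55 member regions against the reads of both breeds together (x axis, log scale), colored by gene. The line and bands give the median and the 25th to 75th and 5th to 95th percentiles of all regions in 10 classes of reads. The bands narrow with depth, and the broad CKM region at -0.92 lies below the 5th percentile of the deepest class, -0.36.

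The spread of all regions depended on the depth. In the class of 210 to 351 reads, which holds the 2 CKM regions past 2-fold, the 5th percentile of all regions was -1.07. In the class of 689 reads or more it was -0.36 and the 25th percentile -0.11. The deep regions of AMPD1 and SLC6A8 lay between these percentiles, and of the deep member regions the broad one before CKM was the sole one under the 5th.

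The other genes of the pathway were taken from a list of 21 symbols for creatine synthesis, mitochondrial creatine kinase, adenine nucleotide turnover and exchange, and other globins. A region was found for 16 of them. NGB, the gene of neuroglobin, was placed and had no region. The median log2 ratio was -0.04, with 1 gene at 0.5 or more and none at -0.5 or less, against 6.51% and 4.49% of all genes. The second enzyme of creatine synthesis, GAMT, was at -0.15 (-0.24 to -0.07) and the ubiquitous mitochondrial creatine kinase CKMT1A at 0.20 (0.01 to 0.38). Adenylate kinase 1, AK1, which like creatine kinase restores ATP in the cytosol, was the lowest of the list at -0.33 (-0.42 to -0.24). SLC25A4, the ATP and ADP exchanger of the mitochondrial inner membrane, was at 0.07 (-0.02 to 0.15), and the outer membrane channels VDAC1, VDAC2 and VDAC3 lay between -0.07 and 0.03. The globin gene CYGB was at -0.19 (-0.34 to -0.04).

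AMPD3, the AMP deaminase known from erythrocytes, was the gene at 0.5 or more, at 0.71 (0.61 to 0.81). It lies on chromosome 2 from 49026695 to 49084982, with 13 regions, of which 12 were above 0 and 5 were 2-fold or more higher in Luchuan, against 7.41% of all regions. These 5 lay inside the gene or beyond its upper end and held 47 to 170 reads of both breeds together. All of them were called in Luchuan only, a class with a median of 0.77 over all regions, and the gene was described because it was the one past the limit. The highest, from 49058150 to 49058463, showed 28 reads in Duroc and 74 in Luchuan and a log2 ratio of 1.93 (1.32 to 2.65). The strongest region, from 49045807 to 49046879, showed 645 reads in Duroc and 579 in Luchuan and a log2 ratio of 0.41 (0.24 to 0.57). AMPD2, the third AMP deaminase, was at -0.14 (-0.29 to 0.01). Thus the AMP deaminase genes AMPD1 and AMPD3 stood on opposite sides, and AMPD3 exceeded AMPD1 by 1.02 (0.90 to 1.14, exact conditional interval for counting error), a pair that was chosen after values had been seen.

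The skeletal muscle markers lay on the same side as CKM and AMPD1. All 5 were below 0 under each scaling tried, with a median of -0.34 and a range of -0.41 for MYH1 to -0.04 for DES. The interval of DES, -0.10 to 0.02, included 0. TNNT3 and MYLPF, fast fiber genes like MYH1, were at -0.34 and -0.37, and ACTA1 was at -0.09. Among all genes, DES stood at percentile 43.0 and ACTA1 at 33.5, against 6.36 to 9.08 for MYH1, MYLPF and TNNT3. Many of the markers of other cells had few regions and wide intervals. The immune marker CD68, at -0.10 (-0.20 to -0.01), and the adipocyte marker CIDEC, at 0.13 (0.02 to 0.24), had narrower ones. The 4 adipocyte markers ranged from -0.94 to 0.34, the 4 endothelial markers from -0.13 to 0.79, the 3 fibroblast markers with a region from -0.11 to 0.38, the 3 immune markers from -1.09 to 1.25 and the 4 liver genes from -0.07 to 1.23. The Schwann cell marker SOX10 was at -0.24. LUM of the fibroblast list had no region. The part of cell or fiber composition in the member values was not tested, and in bulk muscle fewer nuclei of a type and less open chromatin per nucleus cannot be told apart.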

How the data were processed

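ATAC-seq of longissimus dorsi muscle was available as 1 peak table for 3 Duroc and 3 Luchuan boars. Reads were filtered by the authors with Trimmomatic (version 0.36), aligned with Bowtie2 to Sus scrofa 11.1, an assembly of a Duroc pig, and peaks were detected with MACS2. Duplicate removal, the transposase shift and the pooling of replicates are not given in the sources used here. The counts deposited by the authors are whole reads per interval and breed, not scaled for depth and read here as pooled over boars. The deposited log2 ratio, average log2 signal and p-value columns hold the authors' own comparison and were not used.

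Starts were counted from 0 in the table (the shortest interval is then 150 bases) and are given from 1. Overlapping or adjoining shared intervals were merged and represented by the longest. Gene positions came from 19550 RefSeq protein-coding genes, without strand, exons or sequence. Gene ratios use summed counts without a pseudocount. The depth was 1 pooled count per breed, and without molecular identifiers duplicate reads cannot be told from separate molecules, so intervals cover counting error only. Regions were named where they had the most reads of a gene, held a gene end, were past 2-fold, or were lowest or highest among those of 40 or more reads. The broad CKM region at -0.92, the strongest CKMT2 region of the gene body and the AMPD3 regions were named after values had been seen. The members and lists were chosen with earlier results of these data known. Calculations were tested on simulated counts with counting error alone and no spread between animals. That test checks the calculation and cannot show whether the intervals hold between boars. The work was done in Python 3.11.15 with SciPy 1.17.1, pandas 2.3.3 and NumPy 2.4.6, and drawn with Matplotlib 3.10.9. Alternatives covered scaling, merging, windows, the pseudocount, low counts, the fold and the strongest region. Some items of a marker list are not reported here.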

Additional observations from a re-analysis of the deposited data

How the results depend on the processing

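Of 86 recomputed values, 70 stayed within the counting interval (or within 1.5 times a count), 15 moved and 1 reversed. Some of the 70 could not have moved. Every member region held 40 or more reads, so the limit of 20 reads changed nothing. GATM had 1 region, in its gene body, so neither the windows nor leaving out regions inside other genes could change its value. No region of AMPD1 lay inside another gene either. The 70 therefore overstate how far the values were put to a test. The member median has no counting interval of its own. The width of the interval of the summed member reads, set around the median, was used in its place. Scaling by the clean reads of the libraries moved CKM to -0.66, SLC6A8 to -0.50, GATM to -0.27, AMPD1 to -0.51 and the median of member regions to -0.48, reversed CKMT2 to -0.047 (8 of its 14 regions were then below 0), and raised the regions 2-fold or more higher in Duroc from 2 to 6 (all regions from 5.34% to 8.41%). The medians of the same chromosome moved SLC6A8 to -0.074 and the member median to -0.18. Every interval as listed gave a member median of -0.25. The gene body alone gave -0.24 for CKM, -0.40 for AMPD1 and 1 region past 2-fold in Duroc. Without the strongest region of each gene, CKM was at -0.71 and the member median at -0.33, and GATM had no value. A 1.5-fold limit gave 12 regions higher in Duroc (14.3% of all regions). The setting without regions inside other genes was chosen after seeing the data. Of 80 values of named regions, 6 moved and 1 reversed, the CKMT2 region across an end of ZCCHC9, at -0.030 with clean reads. In all, 3 of the 80 had the other sign, the other two being SLC6A8 regions whose intervals include 0, at 0.11 and 0.08 with the chromosome medians. With the center that varies with the signal the count past 2-fold was again 2, of which 1 was another CKM region. No paired analysis was possible because the counts are given per breed and not per boar, and for the same reason no boar could be left out. Depth limits the weak regions most, and the CKMT2 region of 40 reads has an interval of -1.20 to 0.80.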
